A study of Homo sapiens with 9 samples.

Results

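The 10 genes described here encode the FOS proteins (FOS, FOSB, FOSL1 and FOSL2), the JUN proteins (JUN, JUNB and JUND), the zinc finger factors EGR1 and EGR3, and IER2. They were taken as a named set of AP-1 and EGR immediate early genes and matched by symbol and Ensembl identifier, and all 10 were found among the 57500 genes of the count files. Cells of HEK293T, a widely used line from human embryonic kidney, received 10 µM HBC530, 10 µM MsOc3HBC or the vehicle DMSO for 5 h, in 3 biological replicates per treatment and 9 libraries of poly(A) RNA in all. HBC530 is the noncovalent fluorophore ligand of the Pepper RNA aptamer. MsOc3HBC is an HBC ligand with a mesyloxypropyl handle that can alkylate the aptamer. The treatments of this experiment name no aptamer construct. The comparisons address whether a ligand, and in particular a reactive one, changed the transcript levels of the cell.

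AP-1 is a family of dimeric transcription factors. JUN proteins pair with each other or with FOS proteins through a leucine zipper, whereas FOS proteins need a JUN partner to bind DNA. FOS, EGR1 and IER2 are classical immediate early genes, which growth factors, serum or stress switch on within minutes without new protein synthesis and which fall back soon after. JUND is more constitutive, and JUN is also induced by stress through the JNK kinases and can act on its own promoter. A single time of 5 h therefore reports the level long after any first transient, which these libraries did not sample.

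The libraries held between 28056929 and 62205366 counts, with medians of 59692075 with DMSO, 51865127 with HBC530 and 43199102 with MsOc3HBC. Replicate 3 of HBC530 and replicate 3 of MsOc3HBC stood apart from the other 7 libraries on the first principal component, which held 37.3% of the variance, and were also the shallowest. Of the markers of this line, NEFL, NEFM, VIM, KRT8, KRT18 and PAX2 were all expressed. Levels are given as CPM, the counts of a gene per 1000000 counts of its library after TMM scaling, and levels of different genes are compared only per kilobase of exonic length. Changes are log2 fold changes from edgeR's quasi-likelihood test, and a gene was called at a Benjamini-Hochberg adjusted p under 0.05 over all genes tested.

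With HBC530 none of the 10 genes was called, where 3 of 17684 genes (0.0170%) were, all 3 higher. JUN missed the threshold narrowly, and JUN, JUND and FOSL1 had an unadjusted p under 0.05, all higher with the ligand (2.70% of all genes). With MsOc3HBC none of the 10 was called either, where 27 of 17514 genes (0.154%) were, 14 higher (0.0799%) and 13 lower (0.0742%). Here JUN and JUND had an unadjusted p under 0.05 on the higher side (6.12% of all genes), and FOS and JUNB on the lower side (4.78%). Between the ligands the unblocked test called none of the 10 and no gene at all (0.00% of 17397), and 9 of the 10 estimates lay below 0, where 53.8% of all genes lay above it. All 10 have an exonic GC content above the median of the genes tested. With trends of GC content and length removed from each library, 3 of the 10 lay above 0 between the ligands.

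**Figure D1:**
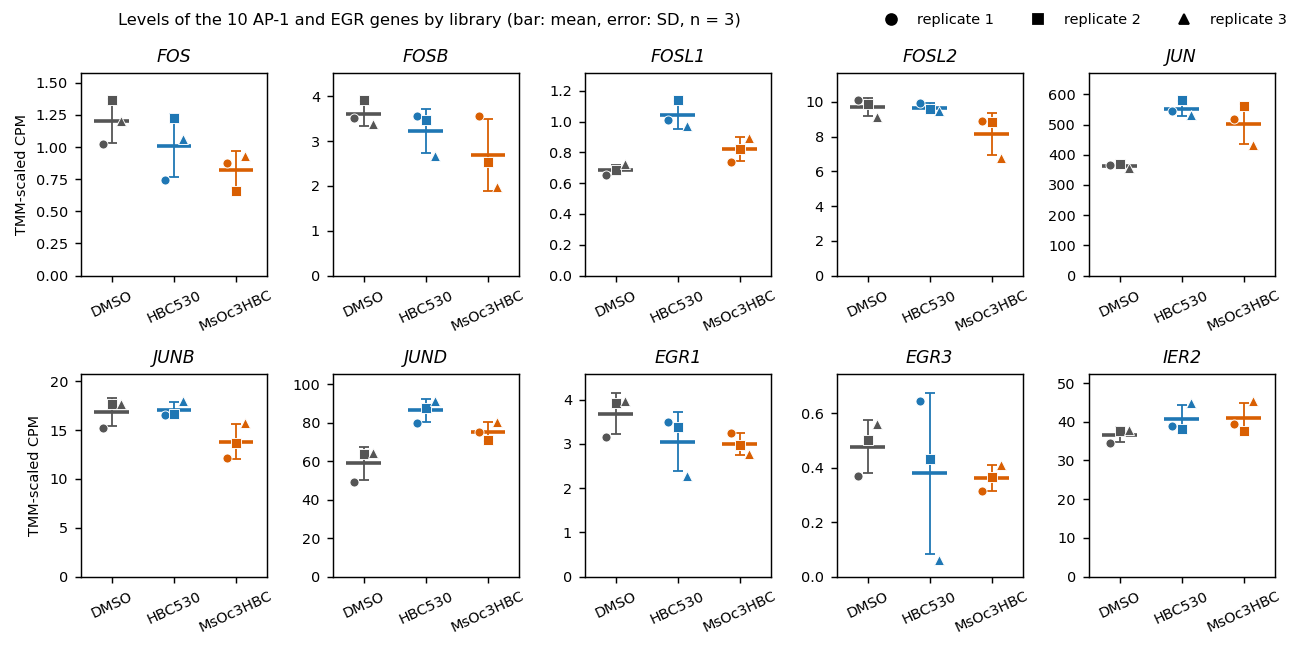
TMM-scaled CPM (linear axes from 0, a separate scale for each gene) in the 9 libraries, with symbols for the replicate number, a bar for the mean of each treatment and error bars for the SD of 3 replicates. JUN and JUND lay above DMSO in every library of both ligands, FOS lay below DMSO in every MsOc3HBC library, and EGR3 was near 0 in replicate 3 of HBC530.

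Per kilobase of exonic length, the set was dominated by JUN. With DMSO, JUN stood at 102.8 ± 2.08 TMM-scaled CPM per kilobase (SD, n = 3), followed by JUND at 31.7 ± 4.61, IER2 at 11.9 ± 0.617 and JUNB at 9.27 ± 0.768. A clear step separated these genes from FOSL2 at 1.36 ± 0.0739, EGR1 at 1.17 ± 0.149 and FOSB at 0.650 ± 0.0507 on the same scale. FOS at 0.370 ± 0.0530 and FOSL1 at 0.364 ± 0.0178 were the only neighbours in this order whose ranges overlapped, and EGR3 was lowest at 0.0984 ± 0.0200. The first 7 positions kept this order with HBC530 and with MsOc3HBC, although the ranges of FOSL2 and EGR1 overlapped with MsOc3HBC. FOSL1 stood above FOS with both ligands, without overlap, and its range overlapped that of FOSB.

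**Figure D2:**
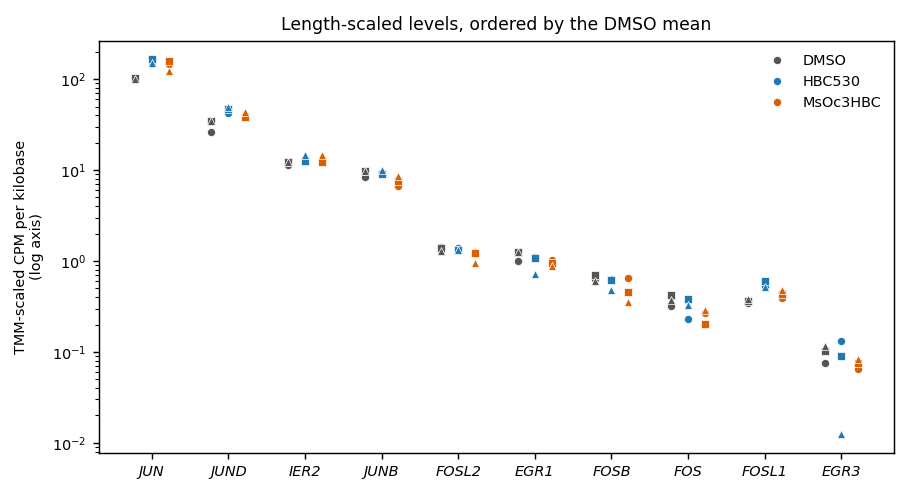
TMM-scaled CPM per kilobase of exonic length (log axis) of the 10 genes, ordered by their mean with DMSO, with a point for each library in the colour of its treatment and the symbol of its replicate as in the plot of levels by library. JUN stood near 103 with DMSO and EGR3 near 0.0984, and the 3 JUN genes and IER2 were separated from the others by a gap.

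The messages of the FOS family were thus a small part of the AP-1 total. Summed per kilobase, the 4 FOS genes made up between 1.79 and 1.92% of all FOS and JUN family messages with DMSO, between 1.25 and 1.34% with HBC530, and between 1.13 and 1.30% with MsOc3HBC. The ratio of the summed JUN to the summed FOS family was 52.5 ± 2.02 (SD, n = 3) with DMSO, 75.9 ± 2.81 with HBC530 and 82.5 ± 6.04 with MsOc3HBC. The ratio was higher in every library of either ligand than in every DMSO library. The summed FOS family was 2.74 ± 0.120 with DMSO and 2.80 ± 0.148 with HBC530, and the summed JUN family was 143.6 ± 4.80 and 212 ± 7.85. With MsOc3HBC the sums were 2.31 ± 0.241 for FOS and 190.2 ± 15.4 for JUN. The ratio therefore moved through the JUN sum with HBC530 and through both sums with MsOc3HBC. These sums are descriptions without a test. JUN itself made up between 68.2 and 76.8% of the family messages in the 9 libraries, with overlapping ranges in the 3 treatments. The share of JUNB lay below the DMSO range of 5.94 to 6.60% in all 6 ligand libraries, at 3.40 to 4.93%. With HBC530 the level of JUNB itself was not lower, at 9.39 ± 0.456 per kilobase against 9.27 ± 0.768 with DMSO, while the JUN family sum was larger.

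JUN, the founding AP-1 subunit, is a single-exon gene on the minus strand of chromosome 1 (chr1:58780788-58784327 in the count files, GRCh38). Its levels were 367.5, 368.5 and 355.3 CPM in DMSO replicates 1 to 3, 544.9, 582.7 and 532.0 CPM with HBC530, and 517.4, 561.3 and 431.2 CPM with MsOc3HBC. All 6 ligand libraries lay above all DMSO libraries, and replicate 3 of MsOc3HBC was the lowest of the 6. The log2 fold change was 0.61 (SE 0.0800, 95% interval 0.43 to 0.78) with HBC530, a 1.52-fold higher level, with an edgeR adjusted p of 0.0527. It was 0.47 (SE 0.108, 0.23 to 0.71) with MsOc3HBC, with an edgeR adjusted p of 0.171. In these bulk libraries more cells with the transcript and more RNA per cell cannot be told apart. In the order of p-values JUN was number 5 of 17684 genes with HBC530 and number 113 of 17514 with MsOc3HBC. The call depended on the libraries and on the test. JUN was called without HBC530 replicate 3 (edgeR adjusted p 0.00182, log2 fold change 0.64) and without MsOc3HBC replicate 3 (edgeR adjusted p 0.00292, 0.57). DESeq2 called it with all libraries, with adjusted p-values of 3.33e-08 for HBC530 against DMSO and 0.0118 for MsOc3HBC against DMSO.

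JUND, a JUN protein with a rather steady level in most cells, lies on the minus strand of chromosome 19 (chr19:18279760-18281622). Its levels were 49.04, 63.79 and 64.04 CPM with DMSO, 79.72, 87.71 and 91.42 CPM with HBC530, and 74.93, 70.80 and 80.31 CPM with MsOc3HBC. Neither ligand overlapped DMSO, among whose libraries replicate 1 was the lowest. The log2 fold change was 0.55 (SE 0.116, 95% interval 0.29 to 0.81) with HBC530 and 0.36 (SE 0.118, 0.10 to 0.61) with MsOc3HBC, with edgeR adjusted p-values of 0.619 and 0.339. Without DMSO replicate 1 these log2 values were 0.43 and 0.23. JUND has the highest exonic GC content of the set, 69.7% where the median of the genes tested was 48.9%. With trends of GC content and length removed from each library, its log2 fold change with MsOc3HBC was 0.47 and called (edgeR adjusted p 0.0278), whereas with HBC530 it was 0.46 (adjusted p 0.0614).

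The sequences just before the starts of these JUN genes are shown because they hold the elements through which ATF and JUN dimers are known to bind them. They were read from the RefSeq promoter windows of GRCh38.p14, which run from 250 bases before to 50 bases after the start and were found for 8 of the 10 genes, all but FOSL1 and EGR3. Each is written 5′ to 3′ on the minus strand. In the JUN stretches the capitals mark TTACCTCA, 186 bases before the start (chr1:58784215-58784244), and TGACATCA, 67 bases before it (chr1:58784096-58784125). In the JUND stretch (chr19:18281623-18281872) they mark TGACGTCA, the full cyclic AMP response element, 200 bases before the start. Only 30 bases are shown around each JUN site, since the gene model of the count files starts further upstream and counts these bases as exon.
JUN distal: gcagcggagcaTTACCTCAtcccgtgagcc
JUN proximal: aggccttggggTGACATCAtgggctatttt
JUND: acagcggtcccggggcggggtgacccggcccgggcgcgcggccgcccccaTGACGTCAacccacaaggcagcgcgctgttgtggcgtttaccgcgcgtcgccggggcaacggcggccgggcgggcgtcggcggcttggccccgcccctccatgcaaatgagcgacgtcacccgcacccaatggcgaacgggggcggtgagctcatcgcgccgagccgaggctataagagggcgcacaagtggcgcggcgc
Searched on both strands, TTACCTCA was present in 0.715% of 35116 promoter windows of this length, TGACATCA in 2.61% and TGACGTCA in 1.85%. None of the other 6 windows of the set held any of these 3. A match describes the letters and was not tested for binding.

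JUNB, a JUN protein known to oppose JUN at many targets, lay within the DMSO range or below it in most ligand libraries. Its levels were 15.26, 17.68 and 17.67 CPM with DMSO, 16.57, 16.64 and 18.04 CPM with HBC530, and 12.11, 13.65 and 15.76 CPM with MsOc3HBC. The HBC530 libraries overlapped DMSO, with a log2 fold change of 0.02 (SE 0.100, 95% interval -0.21 to 0.24, edgeR adjusted p 0.969) whose sign depended on the processing. With MsOc3HBC it was -0.29 (SE 0.121, -0.56 to -0.02, edgeR adjusted p 0.428), and only replicate 3 reached into the DMSO range. JUNB overlaps the antisense gene HOOK2, which held a mean of 1098 counts per library against 777.2 for JUNB. This overlap is of whole gene spans, and the sources used here do not give the strand setting of the counting. Whether the overlap affected the counts was not tested.

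Among the FOS family, which cannot bind DNA without a JUN partner, no member was called and the members moved in different directions. FOS, the prototype immediate early gene, stood at 1.03, 1.37 and 1.20 CPM with DMSO, 0.743, 1.23 and 1.06 CPM with HBC530, and 0.875, 0.659 and 0.933 CPM with MsOc3HBC. All MsOc3HBC libraries lay below all DMSO libraries, while HBC530 overlapped both. FOS had a log2 fold change of -0.26 (SE 0.216, 95% interval -0.73 to 0.22, edgeR adjusted p 0.755) with HBC530 and -0.58 (SE 0.216, -1.05 to -0.10, edgeR adjusted p 0.388) with MsOc3HBC. The HBC530 value moved to -0.06 without HBC530 replicate 1 and to -0.46 without HBC530 replicate 2. FOSL1, the FRA1 protein that is itself a known AP-1 target, stood at 0.655, 0.685 and 0.722 CPM with DMSO, 1.01, 1.14 and 0.970 CPM with HBC530, and 0.740, 0.823 and 0.896 CPM with MsOc3HBC. Both ligands lay above DMSO and HBC530 above MsOc3HBC, without overlap. FOSL1 rests on 24 to 66 counts per library. Its log2 fold change was 0.60 (SE 0.179, 0.21 to 1.00, edgeR adjusted p 0.751) with HBC530 and 0.24 (SE 0.206, -0.21 to 0.69, edgeR adjusted p 0.690) with MsOc3HBC.

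FOSB stood at 3.51, 3.92 and 3.38 CPM with DMSO, 3.56, 3.46 and 2.67 CPM with HBC530, and 3.57, 2.53 and 1.98 CPM with MsOc3HBC. Replicate 3 was the lowest in each treatment, and the treatments overlapped. FOSB had a log2 fold change of -0.14 (SE 0.140) with HBC530 and -0.40 (SE 0.190, 95% interval -0.81 to 0.02) with MsOc3HBC. With 1 library left out these ran from -0.22 to -0.03, the latter without HBC530 replicate 3, and from -0.65 to -0.25. FOSB overlaps the antisense DNA repair gene ERCC1, which held 2076 counts per library on average against 159.1 for FOSB, with the same limit as for JUNB. FOSL2, the FRA2 protein, stood at 10.1, 9.87 and 9.11 CPM with DMSO, 9.96, 9.57 and 9.49 CPM with HBC530, and 8.88, 8.84 and 6.76 CPM with MsOc3HBC. The HBC530 values lay within the DMSO range, and the MsOc3HBC values lay below it. Its log2 fold change was -0.0018 (SE 0.0973) with HBC530 and -0.24 (SE 0.125, -0.51 to 0.04, edgeR adjusted p 0.517) with MsOc3HBC.

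EGR1, a zinc finger factor that growth signals induce through SRF, stood at 3.14, 3.92 and 3.98 CPM with DMSO, 3.49, 3.37 and 2.27 CPM with HBC530, and 3.25, 2.98 and 2.76 CPM with MsOc3HBC. The treatments overlapped through DMSO replicate 1, and the lowest value was that of HBC530 replicate 3. EGR1 had a log2 fold change of -0.26 (SE 0.170, 95% interval -0.63 to 0.12) with HBC530 and -0.29 (SE 0.146, -0.61 to 0.03) with MsOc3HBC, with edgeR adjusted p-values of 0.751 and 0.488. The HBC530 value was -0.11 without HBC530 replicate 3. EGR3, a related factor known from muscle spindles and lymphocytes, was the least expressed gene of the set. It stood at 0.371, 0.501 and 0.561 CPM with DMSO, 0.648, 0.432 and 0.0606 CPM with HBC530, and 0.314, 0.366 and 0.411 CPM with MsOc3HBC. The value of HBC530 replicate 3 rests on 2 counts, with a 95% exact Poisson interval of 0.00734 to 0.219 CPM that covers counting error only. It lay below the intervals of HBC530 replicates 1 (0.448 to 0.905 CPM) and 2 (0.280 to 0.638 CPM), so these libraries differed by more than counting error. The cause was not tested. The log2 fold change of EGR3 with HBC530 was -0.22 (SE 0.451) and became 0.15 without replicate 3, so no direction can be given. With MsOc3HBC it was -0.43 (SE 0.280, -1.04 to 0.18).

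IER2, a small nuclear protein of the immediate early class, stood at 34.5, 37.6 and 38.0 CPM with DMSO, 38.9, 38.2 and 44.8 CPM with HBC530, and 39.4, 37.7 and 45.5 CPM with MsOc3HBC. HBC530 lay just above DMSO in all libraries, and replicate 3 was the highest with each ligand. IER2 had a log2 fold change of 0.15 (SE 0.0971, 95% interval -0.07 to 0.36) with HBC530 and 0.16 (SE 0.104, -0.07 to 0.38) with MsOc3HBC, with edgeR adjusted p-values of 0.751 and 0.599.

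The upstream sequences of EGR1 and FOS are shown because the immediate early response is known to run through SRF sites and cyclic AMP response elements there. Both are on the plus strand of GRCh38.p14 and written 5′ to 3′. In EGR1 (chr5:138465229-138465478) the capitals mark CArG boxes, the sites of SRF, 105 and 83 bases before the start. In FOS (chr14:75278578-75278773) they mark TGACG, which opens a cyclic AMP response element 64 bases before the start, and the stretch ends where the exon of the count files begins.
EGR1: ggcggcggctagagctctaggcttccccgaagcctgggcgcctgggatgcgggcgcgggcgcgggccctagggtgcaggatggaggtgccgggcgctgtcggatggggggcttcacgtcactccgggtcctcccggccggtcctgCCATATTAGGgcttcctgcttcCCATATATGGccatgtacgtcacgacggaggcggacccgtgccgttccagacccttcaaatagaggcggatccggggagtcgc
FOS: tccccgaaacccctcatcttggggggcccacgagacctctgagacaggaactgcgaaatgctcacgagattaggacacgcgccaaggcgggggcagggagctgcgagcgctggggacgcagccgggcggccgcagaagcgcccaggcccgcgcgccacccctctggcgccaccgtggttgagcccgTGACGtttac
A CArG box was present in 1.29% of the promoter windows and, among the 8 windows of the set, in EGR1 alone, which also held the EGR site GCGNGGGCG (9.43% of windows) 198 bases before its start. TGACG, searched on both strands and contained in TGACGTCA, was present in 24.6% of windows. The window does not reach the known serum response element of FOS, and no statement on it is made.

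The counts for the set were read against all genes. With HBC530, 3 of the 10 genes had an unadjusted p under 0.05 and a higher level, where 2.70% of all genes did, and none had a lower level, where 2.38% did. The groups did not overlap for 4 genes on the higher side (FOSL1, JUN, JUND and IER2), where this held for 7.17% of all genes, and for none on the lower side (6.64%). With MsOc3HBC, 2 genes had an unadjusted p under 0.05 on the higher side (6.12% of all genes) and 2 on the lower side (4.78%). The groups did not overlap for FOSL1, JUN and JUND on the higher side (9.35%) and for FOS and FOSL2 on the lower side (8.96%). Of the 10 genes, 5 lay above 0 with HBC530 (51.1% of all genes) and 4 with MsOc3HBC (52.4%). The median log2 fold change of the set was 0.0072 with HBC530 and -0.26 with MsOc3HBC, where all genes had medians of 0.0046 and 0.012. The study's methods state a looser threshold, there for DESeq2, of a log2 fold change beyond 1 and an adjusted p under 0.5. With this threshold put on the edgeR values, no gene of the set passed with HBC530 (0.0226% of all genes), with MsOc3HBC (0.560%) or between the ligands (0.0115%). The comparisons share the DMSO libraries, so their values are not independent.

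**Figure D3:**
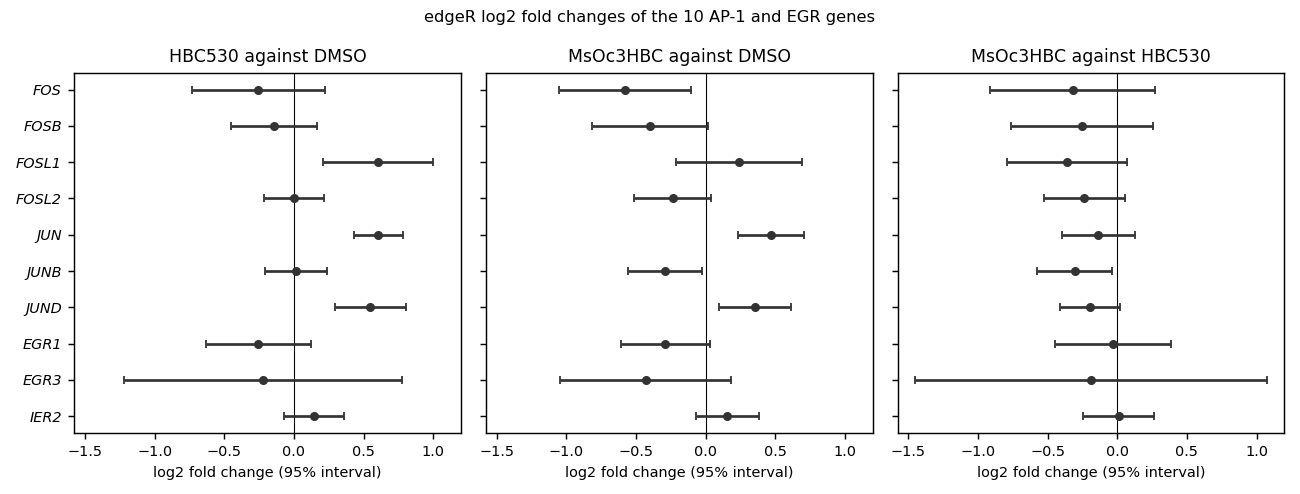
Log2 fold changes (points) with 95% intervals (bars) of the 10 genes in the 3 comparisons, from edgeR with 3 libraries per treatment. The fits had no replicate block and no removal of GC and length trends. JUN and JUND lay above 0 with both ligands, from 0.36 to 0.61, and 9 of the 10 points lay below 0 between the ligands.

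The direct comparison of the ligands, at the same dose and time, set MsOc3HBC against HBC530, which lacks the mesyloxypropyl handle. It made 1 pair of compounds. JUNB was lower with MsOc3HBC, by a log2 fold change of -0.31 (SE 0.117, 95% interval -0.57 to -0.04, edgeR adjusted p 0.643 without the block). JUND was at -0.19 (SE 0.0940, -0.41 to 0.02), FOSL1 at -0.36 (SE 0.186, -0.79 to 0.07), FOSL2 at -0.24 (SE 0.126, -0.53 to 0.05) and JUN at -0.14 (SE 0.114, -0.40 to 0.13). JUNB alone had an unadjusted p under 0.05, where 4.22% of all genes had one on the lower side and 3.10% on the higher side. The groups did not overlap for JUNB, FOSL1 and FOSL2, all lower, where this held for 8.50% of all genes, and for none on the higher side (6.85%). Since FOSL1 did not overlap in either comparison with DMSO, its 3 treatments formed 3 separate ranges. The gap between DMSO replicate 3 (0.722 CPM, 45 counts) and MsOc3HBC replicate 1 (0.740 CPM, 33 counts) was small against counting error. The intervals of FOS (-0.91 to 0.27), FOSB (-0.77 to 0.26), EGR1 (-0.45 to 0.39), EGR3 (-1.45 to 1.07) and IER2 (-0.24 to 0.26) held 0 and left room for differences in either direction.

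For this comparison the replicate numbers were treated as pairs because of the libraries' own deviations, and the labels do not give a pairing. Under that assumption the fit with the replicate block called JUNB (log2 fold change -0.31, SE 0.0723, edgeR adjusted p 0.0157) and JUND (-0.19, SE 0.0553, edgeR adjusted p 0.0385) as lower with MsOc3HBC. These are 2 of the 10 genes, where the blocked fit called 6.90% of all genes lower and 4.54% higher. JUN was at -0.14 (edgeR adjusted p 0.105) and FOSL2 at -0.23 (adjusted p 0.117) with the block. JUNB and JUND have the highest exonic GC contents of the set, 64.9 and 69.7%. With the block and the trends of GC content and length removed, neither was called, with JUNB at -0.16 (edgeR adjusted p 0.313) and JUND at 0.0092 (adjusted p 0.948). In that fit 0.834% of all genes were called lower and 0.943% higher. Without replicate 3 of both ligands, JUNB (-0.37, edgeR adjusted p 0.0120) and JUND (-0.21, adjusted p 0.0488) were called lower, with 9.16% of all genes called in either direction.

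Other immediate early genes formed a list of 24. With HBC530, 1 of 22 genes tested rose, where 0.0170% of all genes did. It was RHOB, a small GTPase of the endosome and cytoskeleton. RHOB stood at 142, 158.9 and 154.9 CPM with DMSO, 361.1, 376.5 and 345.7 CPM with HBC530, and 255.9, 278.1 and 258.3 CPM with MsOc3HBC. The 3 treatments formed separate ranges, with HBC530 the highest. Its log2 fold change was 1.25 (SE 0.0851, edgeR adjusted p 0.000469) with HBC530 and 0.80 (SE 0.0919, edgeR adjusted p 0.00508) with MsOc3HBC, the latter 0.0964 without DMSO replicate 1. For MsOc3HBC against HBC530 it was -0.45 (edgeR adjusted p 0.643), called with the block (adjusted p 0.000212) and with the block and trend removal (-0.36, adjusted p 0.00258). KLF2, a Kruppel-like factor, was at 1.43 for HBC530 against DMSO (edgeR adjusted p 0.0800, DESeq2 adjusted p 3.29e-08) and at -0.59 between the ligands (adjusted p 0.643). KLF6 was at 0.46 for MsOc3HBC against DMSO (edgeR adjusted p 0.118, DESeq2 adjusted p 0.00466). The list's median log2 fold change was 0.064 with HBC530, -0.021 with MsOc3HBC and -0.20 between the ligands, where all genes had 0.0046, 0.012 and 0.017. Between the ligands 18 of 21 genes tested lay below 0, where 53.8% of all genes lay above it. None was called without the block, 8 were called lower with it (6.90% of all genes), and 2 with the block and trend removal (0.834%).

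The bZIP partners, which form heterodimers with JUN or FOS proteins, held the other called genes. ATF3, a stress-induced repressor that pairs with JUN, stood at 36.7, 35.7 and 33.2 CPM with DMSO, 59.1, 55.6 and 61.3 CPM with HBC530, and 61.8, 62.7 and 62.4 CPM with MsOc3HBC. It rose with both ligands, by a log2 fold change of 0.74 (SE 0.0885, edgeR adjusted p 0.0367) and 0.83 (SE 0.0889, edgeR adjusted p 0.00339). The call for HBC530 against DMSO was kept without HBC530 replicate 3 and lost when any 1 of the other 5 libraries was left out, where adjusted p-values lay between 0.0589 and 0.334. JDP2, a JUN dimerization protein that represses AP-1 sites, stood at 3.75, 3.32 and 3.88 CPM with DMSO, 5.58, 5.05 and 6.55 CPM with HBC530, and 10.16, 11.24 and 11.99 CPM with MsOc3HBC. It formed 3 separate ranges, with DMSO the lowest, as for RHOB, and here with MsOc3HBC the highest. Its log2 fold change was 1.61 (SE 0.122, edgeR adjusted p 0.000338) with MsOc3HBC, 0.64 (edgeR adjusted p 0.586, DESeq2 adjusted p 0.0295) with HBC530 and 0.96 (edgeR adjusted p 0.315) for MsOc3HBC against HBC530, the last called with the block (adjusted p 0.000106). DDIT3, the stress factor CHOP, was at 0.82 (SE 0.136) with MsOc3HBC, at the edge of the threshold (edgeR adjusted p 0.04998). That call was lost without MsOc3HBC replicate 1 (adjusted p 0.220) and when DMSO replicate 1, 2 or 3 was left out (0.256, 0.302 and 0.283), and DDIT3 overlaps the far more abundant MARS1. In all, 1 of 14 partners tested rose with HBC530, where 0.0170% of all genes did, and 3 with MsOc3HBC (0.0799%), and none fell.

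**Figure D4:**
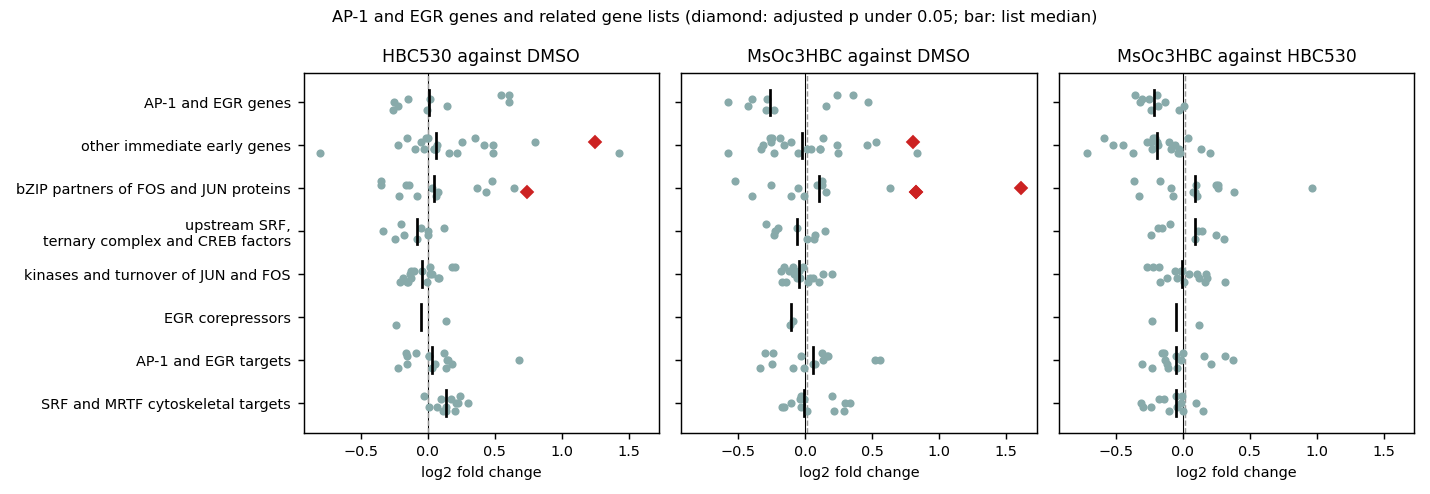
Log2 fold changes of the 10 AP-1 and EGR genes and of 7 related gene lists in the 3 comparisons, from edgeR without a replicate block. Each point is a gene tested, a diamond marks an adjusted p under 0.05 over all genes, a black bar is the median of a list and a dashed line the median of all genes. RHOB and ATF3 are the diamonds with HBC530, and JDP2 at 1.61 lies farthest to the right with MsOc3HBC.

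Factors upstream of these genes were not called against DMSO. Of the 9 SRF, ternary complex and CREB factors, all were tested and none was called with either ligand, with medians of -0.079 and -0.063. The smallest p-values belonged to ELK4 (-0.24) and MRTFB (-0.34) with HBC530, and to ELK3 (-0.29) and ELK1 (-0.20) with MsOc3HBC, with edgeR adjusted p-values of 0.751, 0.751, 0.404 and 0.442. The kinases and ubiquitin ligase subunits that act on JUN and FOS, 17 of 17 tested, gave no call either, with log2 fold changes between -0.21 and 0.20 with HBC530 and between -0.18 and 0.20 with MsOc3HBC. FBXW7, which marks JUN for degradation, was at 0.20 with MsOc3HBC (edgeR adjusted p 0.478). The EGR corepressors NAB1 and NAB2 were at -0.24 and 0.13 with HBC530 and at -0.12 and -0.09 with MsOc3HBC, none called. Between the ligands none of these was called without the block. With it, 2 upstream factors were called higher and 2 lower, and 1 kinase or ligase gene was called higher and 3 lower, where 4.54% of all genes were called higher and 6.90% lower. All 8 calls were lost with the block and trend removal.

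Known AP-1 and EGR targets, a list of 26, were tested for 15, and the filter on low counts removed the others. None was called by edgeR with either ligand, and the medians were 0.030 with HBC530 and 0.054 with MsOc3HBC. TNFRSF12A, the TWEAK receptor, stood at 10.8, 11.4 and 11.2 CPM with DMSO, 15.5, 15.9 and 22.6 CPM with HBC530, and 14.9, 14.6 and 19.9 CPM with MsOc3HBC. It was above DMSO in all ligand libraries, with log2 fold changes of 0.68 (SE 0.144, edgeR adjusted p 0.619) and 0.55 (SE 0.131, edgeR adjusted p 0.182), and replicate 3 was the highest with each ligand. DESeq2 called it, with adjusted p-values of 0.00823 for HBC530 against DMSO and 0.0197 for MsOc3HBC against DMSO. CCND1, the cell cycle gene of cyclin D1, was at -0.22 (edgeR adjusted p 0.751) with HBC530 and -0.33 (edgeR adjusted p 0.331) with MsOc3HBC, below DMSO in all ligand libraries.

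The genes whose log2 CPM followed a member most closely over the 9 libraries were sought among 13613 genes with a mean of at least 1 CPM. For JUN these were RHOB (Pearson r 0.939), KCNAB2 (0.928) and CDIN1 (0.918). For EGR1 they included SP2 (0.948) and TP73 (0.926), and for FOS they were ARHGAP45 (0.857), CCDC3 (0.850) and HEY1 (0.842). The 9 points share treatment and library depth, and with so many genes searched the highest values are a description only.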

How the data were processed

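Raw read counts per gene were deposited by the authors, 1 file per library. Per the labels and methods, the authors used Trimmomatic 0.36 for trimming, STAR 2.5.2b for alignment to GRCh38, and took unique gene hits with featureCounts of Subread 1.5.2. The annotation release and strand setting are not given in the sources used here. The authors' tables of DESeq2 fold changes, p-values and size-factor normalized counts were not used.

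Each comparison took 6 libraries, grouped by treatment label, in edgeR 4.0.16 (R 4.3.3) after filterByExpr at its defaults, by the quasi-likelihood F test with TMM scaling and Benjamini-Hochberg adjustment over all genes tested. Standard errors are the log2 fold change divided by the root of F. Alternatives used DESeq2 1.42.0, limma-voom (limma 3.58.1) and other scalings, filters, blocks and left-out libraries. Removal of GC and length trends used splines (natural, 5 degrees of freedom) in each library. On simulated counts with changes of 1 and 0.5 on the log2 scale, edgeR recovered 84 and 40% for HBC530 against DMSO, 79 and 22% for MsOc3HBC against DMSO, and 67 and 9% between the ligands. False calls were 10 of 134, 7 of 108 and 6 of 82. These counts were drawn independently for each gene, with no GC trend and no deviation shared by the genes of a library. The recovered shares may therefore not hold for the real libraries.

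Libraries with the same replicate number deviated together between MsOc3HBC and HBC530 (correlations across 17397 genes of 0.188, 0.416 and 0.477), so blocked values are given there. MsOc3HBC replicate 2 and HBC530 replicate 1 also deviated together (0.337), more than replicate 1 of both ligands did (0.188). The pairing is thus an assumption that comes from this check of the same libraries and not from the labels. Against DMSO, of the same-numbered pairs only replicate 3 of HBC530 was over 0.1. The values were 0.0897, 0.0226 and 0.181 for HBC530, and -0.116, 0.00951 and 0.0465 for MsOc3HBC. Replicate 2 with DMSO replicate 1 gave 0.122 for HBC530 and 0.159 for MsOc3HBC. Named were all 10 genes, list genes with an adjusted p under 0.05 in any comparison or among the 2 smallest p-values of their list in each, and the 3 genes most like JUN, EGR1 and FOS, of which 1 is not reported here. Members and lists were chosen with earlier results of these data known.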

Additional observations from a re-analysis of the deposited data

Results flagged for a closer look

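The replicate block assumes a pairing that the labels do not give. With it, the test of the difference between the ligands gave edgeR adjusted p-values under 0.05 for 2 of the 10 genes. That fit called 6.90% of all genes lower and 4.54% higher, and it called 11 of the list genes named here. Further list genes were called and are counted elsewhere. JUNB (log2 fold change -0.313, MsOc3HBC against HBC530) and JUND (-0.194) were lower with MsOc3HBC. Of the lists, RHOB (-0.45), KLF2 (-0.598), SRF (-0.185), MAPK3 (-0.269), RPS6KA1 (-0.178), ZYX (-0.313) and ACTG1 (-0.302) were lower, and JDP2 (0.972), NFE2L2 (0.242), ELK4 (0.306) and VEGFA (0.313) were higher. None of the 13 was called in the fit of the same 6 libraries without the block. With the trends of GC content and length also removed, RHOB, JDP2 and VEGFA stayed called, and the other 10, JUNB and JUND included, did not. For MsOc3HBC against HBC530 that fit gave KLF2 -0.44 (edgeR adjusted p 0.0561), NFE2L2 0.21 (0.0602), ELK4 0.19 (0.134), SRF -0.03 (0.781), MAPK3 -0.11 (0.221), RPS6KA1 -0.06 (0.531), ZYX -0.13 (0.250) and ACTG1 -0.18 (0.121). Groups of 3 libraries were not examined for single outlying values.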

How the results depend on the processing

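As reported, without a block, no gene of the set was called in any comparison. With HBC530 against DMSO, JUN and JUND were called by DESeq2 (0.136% of all genes called), without a filter (0.146%) and with the block (0.0905%). JUN alone was called by limma-voom (0.0283%), after thinning to the smallest total (0.0377%) and with the block and GC and length trends removed (0.0736%). JUN was also called without HBC530 replicate 3 (0.0331%), so leaving out 1 library gave 0 to 1 calls. The fit as reported called 0.0170% of all genes. With MsOc3HBC against DMSO, JUN alone was called by DESeq2 (0.862% of all genes called), without a filter (0.706%) and with the block (0.851%). The fit without MsOc3HBC replicate 3 also called JUN alone (0.421%). Trend removal called JUND alone, without the block (0.400%) and with it (0.303%). The fit as reported called 0.154% of all genes. Leaving out 1 library gave 0 to 1 calls. Against DMSO the labels do not say whether same-numbered libraries are paired. Correlations of their deviations ran from -0.116 to 0.181, and unlike numbers reached 0.159, so blocked calls against DMSO rest on an assumed pairing. There the blocked fit raised the calls of all genes from 3 higher to 8 higher and 8 lower with HBC530. With MsOc3HBC they rose from 14 higher and 13 lower to 86 and 63. Between the ligands the block called 2 (790 genes higher and 1200 lower in all). The fit without replicate 3 of both ligands called 2 (9.16% of all genes), and leaving out 1 library called 0. The set's median log2 fold change lay between -0.0111 and 0.0467, -0.284 and -0.188, and -0.255 and -0.157 in the 3 comparisons when 1 library was left out. DESeq2 called 11 genes higher and 13 lower with HBC530, and 85 and 66 with MsOc3HBC.

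Some signs turned. With HBC530 against DMSO, FOSL2 became 0.0118 with upper-quartile factors, 0.00112 with limma-voom, 0.0258 with trends removed, 0.0245 with block and trends removed, and 0.00592, 0.0173, 0.0286 and 0.0102 without HBC530 replicates 2 and 3 and DMSO replicates 1 and 2. JUNB became -0.0972 and -0.0981 with trends removed, without and with the block, and -0.0187 and -0.0508 without HBC530 replicate 3 and DMSO replicate 1. EGR3 became 0.149 without HBC530 replicate 3. For MsOc3HBC against HBC530, EGR3 became 0.222 with limma-voom and 0.363 without HBC530 replicate 1. IER2 became -0.00134 without a filter, -0.00437 thinned, -0.0705 without MsOc3HBC replicate 3, -0.0235 and -0.0338 without HBC530 replicates 1 and 2, and -0.00594 without replicate 3 of both. EGR1 became 0.0415 thinned, 0.0431 and 0.0342 with trends removed, 0.0169 without MsOc3HBC replicate 3, and 0.0737 and 0.0479 without HBC530 replicates 1 and 2. JUND, at -0.19 as reported, became 0.0119 and 0.00925 with trends removed, without and with the block. With 1 library left out, the values ran from -0.0445 to 0.0286 (FOSL2), -0.0508 to 0.0528 (JUNB) and -0.753 to 0.149 (EGR3) with HBC530 against DMSO, and between the ligands from -0.184 to 0.0737 (EGR1), -0.578 to 0.363 (EGR3) and -0.0705 to 0.0861 (IER2). The causes were not tested. A filter of 10 counts in every library left EGR3 untested with HBC530, and EGR3, FOS and FOSL1 held the fewest counts of the set.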

Other observations

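The SRF and MRTF cytoskeletal targets, which share the serum response route of the immediate early genes, were tested for 13 of 14 genes. With HBC530 12 of the 13 had log2 fold changes above 0, where 51.1% of all genes did. Their median was 0.14, where all genes had 0.0046, and none was called. The groups did not overlap for 5 of the 13 on the higher side (7.17% of all genes) and for 0 on the lower side (6.64%). The smallest p-values were those of TPM1, a tropomyosin (0.24, edgeR adjusted p 0.751), and CNN2, a calponin (0.17, adjusted p 0.751). With MsOc3HBC 6 of the 13 were above 0 (52.4% of all genes), with a median of -0.0081, and none was called. There the groups did not overlap for 3 on the higher side (9.35% of all genes) and for 0 on the lower side (8.96%). TPM2 was at 0.29 (edgeR adjusted p 0.448) and TPM1 at 0.20 (adjusted p 0.528). Between the ligands ZYX, the focal adhesion protein zyxin, was at -0.31 and ACTG1, cytoplasmic actin, at -0.30 (edgeR adjusted p 0.643 for both, without the block). With the block 4 of the 13 were called lower with MsOc3HBC, where 6.90% of all genes were, and none with the block and the trends of GC content and length removed (0.834%). Markers of blood, liver and endothelial cells were too low to be tested, and COL1A1 was expressed at 19.4 to 35.2 CPM.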
